A study of Mus musculus with 3 samples.

Results

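The genes described here are 47 regulators and effectors of the cell cycle, out of the 30559 genes counted in 3 single-nucleus RNA libraries of differentiated neurosphere cultures. They were taken from a fixed list of symbols and fall into 20 S-phase members, 24 mitotic members and 3 G1 members (the D-type cyclins Ccnd1 and Ccnd2 and the kinase Cdk6). A UMI (unique molecular identifier, a tag that marks an original RNA molecule) was found for 46 of the 47, and 44 had at least 50 UMIs over the 3 libraries. The control library held 4884 nuclei, the CBP-ablated library (genotype label CBPf/f) 3017 and the p300-ablated library (p300f/f) 4648. The labels give Cre only for the ablated cultures. Neurospheres are floating clusters of neural stem cells and their progeny, grown here from the subventricular zone of newborn mice and then moved to differentiation medium, and each library came from a pool of about 15 such cultures at day 15 in vitro, from which 16000 nuclei were loaded. The methods describe Cre fused to mCherry brought in by a lentivirus, and a lentivirus with red fluorescent protein for control, whereas the labels of all 3 samples name tamoxifen, so libraries were assigned by genotype. The mouse line of the control cultures is not given in the sources used here, and the nuclei were sorted by red fluorescence before loading, a step that selects nuclei of infected cells.

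Crebbp, which encodes CBP, had 335, 369.5 and 365 CPM (UMIs scaled to a fixed library total) in control, CBP-ablated and p300-ablated nuclei, and Ep300, which encodes p300, had 114, 136 and 115 CPM. Neither floxed gene was thus lower in its own library, and their levels do not check the labels. Conditions were not replicated (1 library for each), so no test was made, the intervals in parentheses (95%) cover counting error only, and both ablated libraries were compared with the same control library. Intervals of levels and ratios count each UMI as independent and leave out variation between nuclei. The libraries held 12748336 to 18876682 UMIs, at which 3 UMIs, taken as the floor for a count of 0, stand for 0.159 to 0.235 CPM. A cluster of 1278 nuclei with all 7 astrocyte markers was made up of control nuclei alone. Sums of the members, and the members past 1.5-fold, are therefore given with and without it. Levels of single members over all nuclei include it. Values of the members follow the order control, CBP-ablated, p300-ablated, and since they are not scaled by gene length they are compared between libraries and not between genes.

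A dividing cell licenses its replication origins in G1, copies its DNA in S phase and separates the copies in mitosis. D-type cyclins with Cdk6 phosphorylate the retinoblastoma protein and so release E2F factors, which activate genes of DNA replication, while genes of mitosis are held down by the DREAM complex in resting cells and switched on later through the CHR element and CCAAT boxes of their promoters. In cultures of this kind neural stem cells and oligodendrocyte precursors keep dividing, whereas neurons and mature oligodendrocytes have left the cycle.

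The promoters of the 4 mitotic and the 4 S-phase members with the highest share of their UMIs in dividing nuclei, among those with a promoter window, are printed with their motifs, and so is Mcm6, which was chosen because it held the most E2F-type matches. The mitotic members include Knl1, Kif11 and Top2a, which were used to find dividing nuclei and whose shares this raises. Sequences are from RefSeq (GRCm38.p6), the 250 bases before the start of the gene, 5′ to 3′ on its own strand. Capitals mark the CHR element (TTTGAA), the CCAAT box (CCAAT) and the E2F-type motif (TTTNNCGC) on either strand. The mitotic members shown are Knl1 at chr2:119046869-119047118 (plus strand), Kif11 at chr19:37376132-37376381 (plus strand), Top2a at chr11:99024190-99024439 (minus strand) and Iqgap3 at chr3:88081801-88082050 (plus strand). The S-phase members shown are Rrm2 at chr12:24708004-24708253 (plus strand), Brip1 at chr11:86201194-86201443 (minus strand), Clspn at chr4:126556730-126556979 (plus strand), Dtl at chr1:191575545-191575794 (minus strand) and Mcm6 at chr1:128359706-128359955 (minus strand).
Knl1: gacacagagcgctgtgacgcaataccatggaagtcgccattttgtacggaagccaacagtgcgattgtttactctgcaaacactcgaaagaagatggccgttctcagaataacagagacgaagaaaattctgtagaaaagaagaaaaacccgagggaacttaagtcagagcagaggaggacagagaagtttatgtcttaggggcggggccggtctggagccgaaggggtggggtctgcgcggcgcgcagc
Kif11: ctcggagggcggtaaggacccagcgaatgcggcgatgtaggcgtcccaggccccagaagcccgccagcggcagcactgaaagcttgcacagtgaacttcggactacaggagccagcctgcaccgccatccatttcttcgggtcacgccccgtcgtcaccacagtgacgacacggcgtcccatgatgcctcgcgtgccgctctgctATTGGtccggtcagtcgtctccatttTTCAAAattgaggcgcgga
Top2a: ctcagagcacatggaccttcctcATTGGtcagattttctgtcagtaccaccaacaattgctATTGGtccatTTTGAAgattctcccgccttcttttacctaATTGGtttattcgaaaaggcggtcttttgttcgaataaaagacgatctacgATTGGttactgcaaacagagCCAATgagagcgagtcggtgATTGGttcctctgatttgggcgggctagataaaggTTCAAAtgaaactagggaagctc
Iqgap3: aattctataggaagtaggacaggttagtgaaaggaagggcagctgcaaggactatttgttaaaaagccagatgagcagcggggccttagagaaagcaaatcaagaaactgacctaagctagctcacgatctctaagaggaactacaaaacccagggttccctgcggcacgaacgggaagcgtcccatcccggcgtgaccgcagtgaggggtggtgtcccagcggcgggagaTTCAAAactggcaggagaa
Rrm2: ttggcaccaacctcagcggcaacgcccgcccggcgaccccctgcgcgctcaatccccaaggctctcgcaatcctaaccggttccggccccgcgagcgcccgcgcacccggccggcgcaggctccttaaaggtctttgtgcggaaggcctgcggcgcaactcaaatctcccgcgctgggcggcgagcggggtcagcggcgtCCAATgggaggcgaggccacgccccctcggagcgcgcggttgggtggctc
Brip1: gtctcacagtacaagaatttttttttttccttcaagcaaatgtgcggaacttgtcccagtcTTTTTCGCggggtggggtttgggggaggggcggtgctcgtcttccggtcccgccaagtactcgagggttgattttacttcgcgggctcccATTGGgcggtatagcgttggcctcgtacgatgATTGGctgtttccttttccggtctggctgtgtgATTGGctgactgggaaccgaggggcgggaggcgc
Clspn: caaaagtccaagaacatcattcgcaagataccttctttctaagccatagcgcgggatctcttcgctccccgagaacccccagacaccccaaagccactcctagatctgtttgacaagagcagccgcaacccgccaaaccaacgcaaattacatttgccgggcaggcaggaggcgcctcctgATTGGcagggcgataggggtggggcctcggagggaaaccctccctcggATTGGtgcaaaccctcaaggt
Dtl: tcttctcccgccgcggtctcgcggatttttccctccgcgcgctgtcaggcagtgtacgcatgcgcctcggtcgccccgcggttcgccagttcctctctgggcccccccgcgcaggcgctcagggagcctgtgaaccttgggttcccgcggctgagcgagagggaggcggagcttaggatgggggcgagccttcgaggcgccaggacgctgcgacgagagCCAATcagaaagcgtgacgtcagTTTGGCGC
Mcm6: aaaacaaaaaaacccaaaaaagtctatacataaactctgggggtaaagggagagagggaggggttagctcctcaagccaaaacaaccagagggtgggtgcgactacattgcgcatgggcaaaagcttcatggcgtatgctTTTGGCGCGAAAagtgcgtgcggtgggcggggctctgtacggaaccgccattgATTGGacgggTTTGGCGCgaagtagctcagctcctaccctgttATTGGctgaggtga

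A promoter window of 300 bases, 250 before and 50 after the start, was found for 38 of the 47 members. The CHR element stood in 17 of 21 mitotic members (81.0%) and in 2 of 16 S-phase members (12.5%), beside 18.1% of all 27025 promoters. The E2F-type motif had the opposite distribution, with 10 of 16 S-phase members (62.5%) and 2 of 21 mitotic members (9.52%), beside 5.27% of all promoters. CCAAT boxes stood in 13 of 16 S-phase and 14 of 21 mitotic members, beside 37.9% of all promoters, and a CHR element together with a CCAAT box in 11 of 21 mitotic members, beside 7.12%. Top2a, which encodes the topoisomerase that untangles sister chromosomes, held 6 CCAAT boxes and 2 CHR elements, and Mki67, the gene of the proliferation antigen Ki-67, held 3 and 2. Mcm6, a subunit of the replicative helicase, held 3 E2F-type matches, some of them overlapping. Knl1 shows no capitals and Clspn no E2F-type match, since these lay in the 50 bases after the start, and Rrm2 had no E2F-type match in its window. Of cell cycle genes outside the 47, the CHR element stood in 27 of 43 mitotic and 6 of 30 S-phase genes, and the E2F-type motif in 7 of 43 and 10 of 30. These are matches of letters, not sites shown to bind a factor.

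Over all nuclei, most S-phase and mitotic members had a higher level in both ablated libraries than in control, while the G1 members fell into separate patterns. Summed over the 20 S-phase members the level was 271, 308 and 341 CPM, a log2 ratio over control of 0.18 (0.12 to 0.25) after CBP ablation and 0.33 (0.28 to 0.39) after p300 ablation. The 24 mitotic members summed to 254, 341 and 338 CPM, with log2 ratios of 0.43 (0.36 to 0.49) and 0.41 (0.35 to 0.47). For the 3 G1 members the sums were 151, 89.5 and 165 CPM, with log2 ratios of −0.75 (−0.86 to −0.65) and 0.13 (0.05 to 0.21). In bulk sums of this kind, fewer dividing nuclei and less RNA per dividing nucleus cannot be told apart, and the share of dividing nuclei is given further on.

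**Figure D1:**
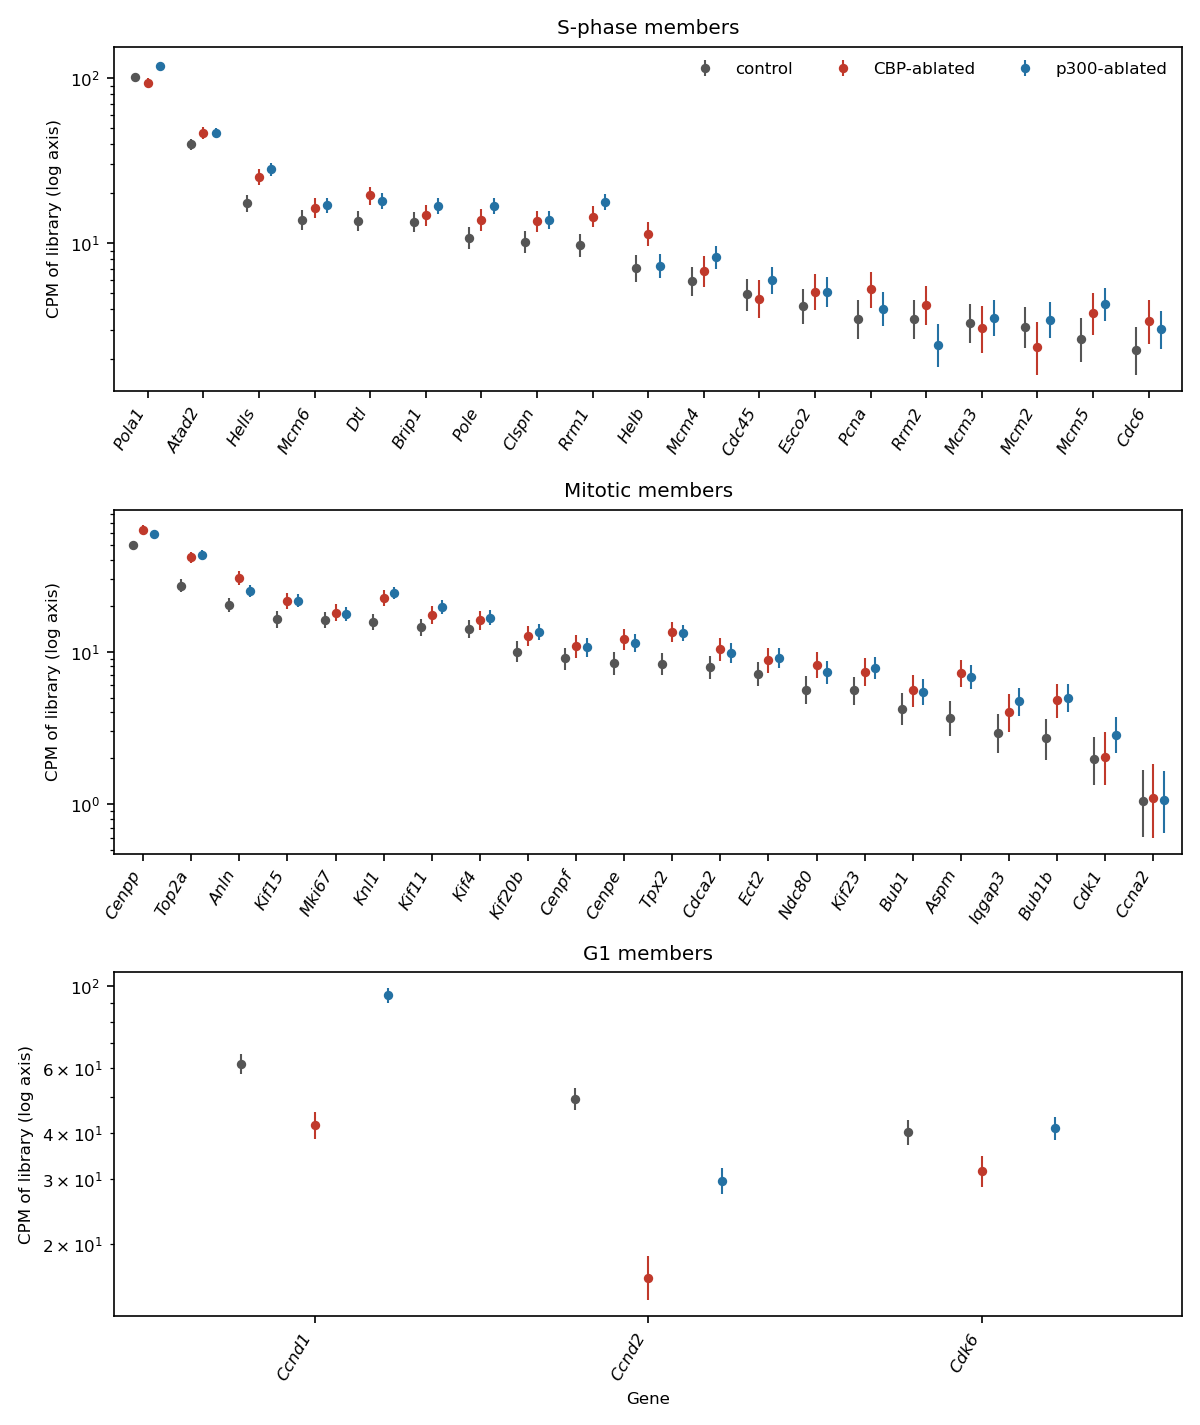
Level of each member with at least 50 UMIs over the 3 libraries, in CPM of the library on a log axis, in control (grey), CBP-ablated (red) and p300-ablated (blue) libraries; bars are exact Poisson intervals, counting error only. Top2a rose from 27.1 CPM in control to 41.5 and 43.0, whereas Ccnd2 lay at 49.4, 16.2 and 29.6 CPM.

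The origin licensing and helicase genes had from 0 to 320 UMIs in a library. Mcm2 to Mcm6, subunits of the replicative helicase, had 3.13, 2.35 and 3.44 CPM for Mcm2 (51, 30 and 65 UMIs) and 3.31, 3.06 and 3.55 for Mcm3 (54, 39 and 67 UMIs). Mcm4 had 5.89, 6.82 and 8.26 CPM (96, 87 and 156 UMIs), Mcm5 2.64, 3.77 and 4.29 CPM (43, 48 and 81 UMIs) and Mcm6 13.9, 16.3 and 17.0 CPM (226, 208 and 320 UMIs). Mcm5 and Mcm6 were thus lowest in control, with log2 ratios after CBP ablation whose intervals included 0 (−0.11 to 1.14 and −0.04 to 0.51). Mcm2 and Mcm3 were lowest in the CBP-ablated library by differences within counting error. Cdc45, which joins the helicase when it starts, had 4.90, 4.63 and 5.99 CPM (80, 59 and 113 UMIs), and Cdc6, a licensing factor, had 2.27, 3.37 and 3.02 CPM (37, 43 and 57 UMIs). Cdt1, the licensing factor that brings the helicase to origins, had 0 UMIs in each library, at which up to 0.184, 0.235 and 0.159 CPM are possible. Its locus (chr8:122568015-122573554 in GRCm38) lies wholly inside a gene model on the same strand, listed as Galnt2l, that had 603, 522 and 524 CPM. Whether reads of Cdt1 were lost to this overlap was not tested, and no other member overlapped a gene on its own strand.

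Among genes of DNA synthesis and nucleotide supply, Pola1 had the most UMIs of the S-phase group. Pola1, the catalytic subunit of the primase polymerase, had 102, 93.8 and 119 CPM (1657, 1196 and 2243 UMIs), the lowest value being in the CBP-ablated library. Pole, of the leading-strand polymerase, had 10.8, 13.9 and 16.7 CPM (176, 177 and 316 UMIs), and Pcna, the sliding clamp, had 3.49, 5.26 and 4.03 CPM (57, 67 and 76 UMIs). The subunits of ribonucleotide reductase, which makes deoxynucleotides, differed from each other. Rrm1, the large subunit, had 9.75, 14.5 and 17.9 CPM (159, 185 and 337 UMIs), whereas Rrm2, the S-phase subunit, had 3.49, 4.24 and 2.44 CPM (57, 54 and 46 UMIs). Rrm1 was lowest in control and highest in the p300-ablated library. Rrm2 was lowest in the p300-ablated library, with an interval of its log2 ratio that included 0 (−1.11 to 0.07).

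Members that guard forks, chromatin and cohesion in S phase were lowest in control in every case. Brip1, a repair helicase, had 13.5, 14.8 and 16.8 CPM (220, 189 and 318 UMIs), and Atad2, a bromodomain protein of replicating chromatin, had 39.7, 46.3 and 46.7 CPM (648, 590 and 881 UMIs). Hells, a chromatin remodeller needed for DNA methylation, had 17.5, 25.3 and 28.0 CPM (285, 323 and 528 UMIs). Dtl, which marks Cdt1 for destruction, had 13.7, 19.5 and 18.1 CPM (223, 248 and 341 UMIs). For Clspn, an adaptor of the replication checkpoint, the values were 10.2, 13.6 and 13.9 CPM (167, 173 and 262 UMIs), and for Esco2, a cohesin acetyltransferase, 4.17, 5.10 and 5.09 CPM (68, 65 and 96 UMIs). Helb, a helicase, was the exception in pattern, with 7.05, 11.4 and 7.31 CPM (115, 145 and 138 UMIs), a higher level in the CBP-ablated library alone.

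Genes of the mitotic chromosome and the kinesins that move it were lowest in control too. Top2a had 27.1, 41.5 and 43.0 CPM (442, 529 and 811 UMIs), Mki67 16.1, 18.04 and 17.7 CPM (262, 230 and 334 UMIs) and Cdca2, a regulator of mitotic chromatin, 7.91, 10.4 and 9.80 CPM (129, 132 and 185 UMIs). Kif11 and Kif15, motors that hold the spindle poles apart, had 14.4, 17.4 and 19.7 CPM (235, 222 and 372 UMIs) and 16.2, 21.4 and 21.5 CPM (265, 273 and 406 UMIs). Kif4, a chromosome-bound motor, had 14.1, 16 and 16.7 CPM (230, 204 and 315 UMIs). The motors of cell division Kif23 and Kif20b had 5.58, 7.37 and 7.79 CPM (91, 94 and 147 UMIs) and 9.99, 12.7 and 13.5 CPM (163, 162 and 254 UMIs). Top2a thus stood about as high in the CBP-ablated as in the p300-ablated library, and its intervals in both lay above that of control.

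At the kinetochore, the protein complex that ties chromosomes to the spindle, Knl1 had 15.6, 22.5 and 24.4 CPM (255, 287 and 460 UMIs) and Ndc80 5.64, 8.16 and 7.31 CPM (92, 104 and 138 UMIs). The checkpoint kinase Bub1 had 4.23, 5.57 and 5.46 CPM (69, 71 and 103 UMIs), and Bub1b, which encodes the checkpoint protein BubR1, had 2.70, 4.78 and 4.98 CPM (44, 61 and 94 UMIs). Cenpe, a kinetochore motor, had 8.40, 12.1 and 11.4 CPM (137, 154 and 215 UMIs) and Cenpf 9.01, 10.8 and 10.6 CPM (147, 138 and 201 UMIs). Cenpp, a protein of the inner kinetochore whose locus overlaps other genes on the opposite strand, had 49.96, 62.9 and 59.1 CPM (815, 802 and 1115 UMIs). All of these were lowest in control.

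Genes of spindle poles and cytokinesis were lowest in control as well. Aspm, a spindle pole protein that is mutated in microcephaly, had 3.68, 7.22 and 6.83 CPM (60, 92 and 129 UMIs), and Tpx2, which activates the Aurora A kinase, had 8.34, 13.5 and 13.2 CPM (136, 172 and 250 UMIs). Ect2, which sets the plane of division, had 7.17, 8.79 and 9.11 CPM (117, 112 and 172 UMIs). Iqgap3 had 2.94, 4.00 and 4.71 CPM (48, 51 and 89 UMIs) and Anln, which encodes the actin-binding protein anillin, 20.3, 30.4 and 25.1 CPM (331, 388 and 474 UMIs). The mitotic kinase Cdk1 had 1.96, 2.04 and 2.86 CPM (32, 26 and 54 UMIs), and its partner Ccna2 had 1.04, 1.1 and 1.06 CPM (17, 14 and 20 UMIs). Ccnb1, with 14 or 15 UMIs in a library, and Plk1, with 8 to 19, were too low for a comparison.

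Among 43 members with at least 50 UMIs in the libraries compared, 6 were past 1.5-fold higher in the CBP-ablated library, beside 9.02% of all 13679 genes at that count, and 1 was past 1.5-fold lower, beside 11.0%. The 6 were Aspm (log2 ratio 0.97, 0.49 to 1.47), Bub1b (0.83, 0.24 to 1.42), Helb (0.69, 0.33 to 1.06), Tpx2 (0.69, 0.36 to 1.03), Top2a (0.61, 0.43 to 0.80) and Pcna (0.59, 0.06 to 1.12), and the lower member was Ccnd2. In the p300-ablated library 11 were past 1.5-fold higher, beside 5.26% of 14082 genes, and again Ccnd2 alone was lower, beside 9.40%. The 11 were Aspm (0.89, 0.44 to 1.36), Bub1b (0.88, 0.35 to 1.44), Rrm1 (0.87, 0.60 to 1.15), Mcm5 (0.70, 0.15 to 1.27), Iqgap3 (0.68, 0.16 to 1.22), Hells (0.68, 0.47 to 0.89), Tpx2 (0.67, 0.36 to 0.98), Top2a (0.66, 0.50 to 0.84), Knl1 (0.64, 0.42 to 0.87), Pole (0.63, 0.36 to 0.91) and Ccnd1 (0.62, 0.51 to 0.73). At 2-fold 0 members were higher, beside 3.25% and 0.980% of all genes, and Ccnd2 was lower in the CBP-ablated library alone, beside 4.51% and 2.72%. The mitotic members moved most evenly, since all 21 that reached the minimum had a log2 ratio above 0 in each comparison, beside 55.8% and 44.98% of all genes. Above 0 were also 15 and 18 of the 19 S-phase members at the minimum. The median log2 ratio was 0.29 in both comparisons for S-phase members and 0.40 and 0.43 for mitotic members, beside 0.05 and −0.04 for all genes.

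Without the astrocyte-like cluster, which held control nuclei alone and no nucleus of the mitotic gate described further on, these differences were smaller. The S-phase sum in control became 308 CPM, with log2 ratios of 0.0014 (−0.063 to 0.066) and 0.15 (0.09 to 0.21), and the mitotic sum 309 CPM, with 0.14 (0.08 to 0.20) and 0.13 (0.07 to 0.18). Of the 43 members, 3 remained past 1.5-fold higher in the CBP-ablated library (7.29% of all genes), namely Bub1b (0.72, 0.10 to 1.36), Helb (0.71, 0.32 to 1.12) and Aspm (0.68, 0.18 to 1.18). In the p300-ablated library the 3 were Bub1b (0.78, 0.21 to 1.37), Rrm1 (0.65, 0.36 to 0.94) and Aspm (0.60, 0.13 to 1.08), beside 3.13%. Top2a then had log2 ratios of 0.25 and 0.30. Lower by that measure were Ccnd2 (−1.01, −1.26 to −0.77), Ccnd1 (−0.86, −1.02 to −0.70), Cdk6 (−0.71, −0.89 to −0.52) and Mcm2 (−0.66, −1.37 to 0.04) in the CBP-ablated library (8.43%), and Rrm2 (−0.70, −1.31 to −0.09) in the p300-ablated library (5.71%). Medians of S-phase and mitotic members lay between 0.06 and 0.11, beside 0.07 and −0.02 for all genes. Some members that were lowest in control over all nuclei then had ratios below 0. Among them were Mki67, at −0.17 (−0.44 to 0.09) and −0.20 (−0.44 to 0.04), and Cenpf, at −0.09 and −0.12. Others stayed above 0, such as Tpx2 at 0.40 (0.06 to 0.74) and 0.37 (0.06 to 0.69).

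**Figure D2:**
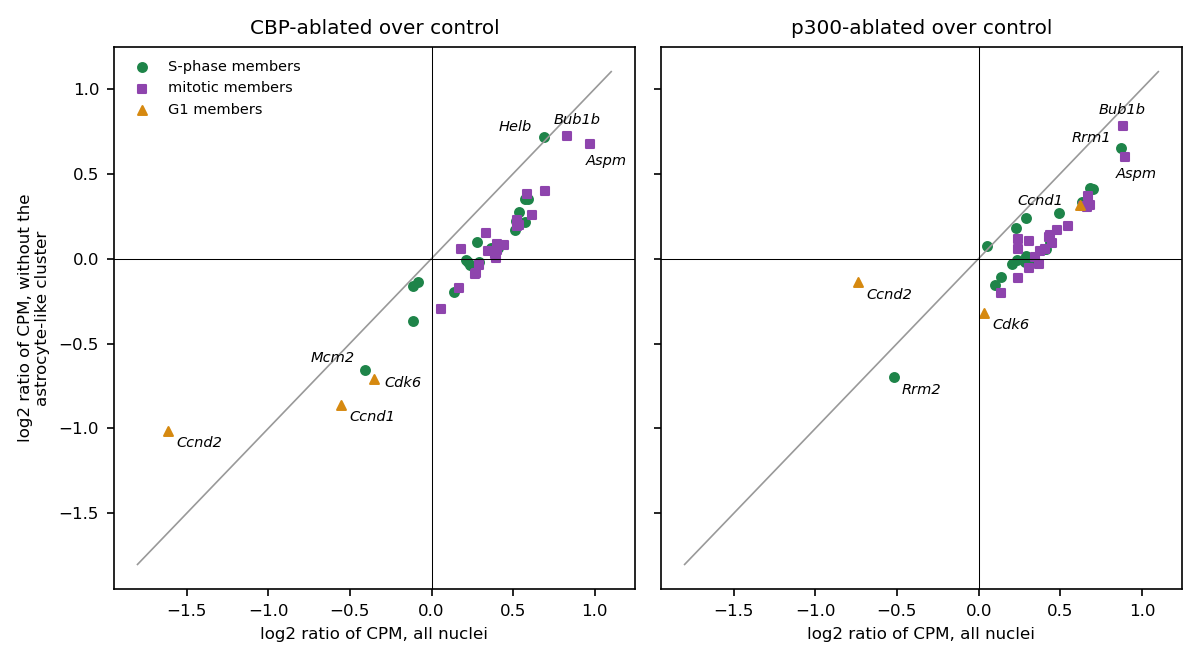
Log2 ratio of CPM over control for each member with at least 50 UMIs, over all nuclei (x axis) and without the astrocyte-like cluster, which held control nuclei alone (y axis); green circles are S-phase, purple squares mitotic and orange triangles G1 members, and the grey line marks equal values. Most S-phase and mitotic members lie below the line, while Ccnd2 lies above it, at −1.61 and −1.01 in the CBP-ablated library.

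Dividing nuclei were counted directly as nuclei with at least 3 UMIs of Top2a, Mki67, Kif11 and Knl1 together (gated nuclei). Control had 131, 2.68% of its nuclei (2.25 to 3.17), the CBP-ablated library 128, 4.24% (3.55 to 5.02), and the p300-ablated library 185, 3.98% (3.44 to 4.58). The share exceeded that of control by 1.56 points (0.735 to 2.44) after CBP ablation and by 1.30 points (0.579 to 2.03) after p300 ablation. Control nuclei were shallower, with a median of 3219 UMIs against 4016 and 3902.5. After each nucleus was thinned to 1500 UMIs, which left out 248, 95 and 135 shallower nuclei, the shares were 1.25%, 2.29% and 1.79%, higher by 1.04 (0.438 to 1.71) and 0.544 points (0.0408 to 1.06). Without the astrocyte-like cluster control had 3.63%, and the differences were 0.610 (−0.327 to 1.57) and 0.347 points (−0.497 to 1.17), with intervals that include 0. Just inside the limit, 29, 16 and 32 nuclei had 3 UMIs, and just outside it 47, 36 and 58 nuclei had 2.

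A parallel count on S-phase members, at least 3 UMIs of Hells, Dtl, Clspn and Rrm2 together, found 74 control nuclei (1.52%), 99 CBP-ablated nuclei (3.28%) and 138 p300-ablated nuclei (2.97%). The differences from control were 1.77 (1.07 to 2.53) and 1.45 points (0.863 to 2.06). Unlike the mitotic gate, this count stayed higher without the astrocyte-like cluster, by 1.23 (0.454 to 2.04) and 0.917 points (0.232 to 1.59), and the difference between the gates in this respect was not tested. Thinned to 1500 UMIs, the shares were 0.151%, 0.719% and 0.377% (7, 21 and 17 nuclei). The differences shrank to 0.568 (0.272 to 0.953) and 0.226 points (0.0119 to 0.465). Thinning and leaving out the astrocyte-like cluster were not combined. Both gates were passed by 41, 51 and 72 nuclei, the S-phase gate alone by 33, 48 and 66 and the mitotic gate alone by 90, 77 and 113. Among nuclei in the mitotic gate, 31.3%, 39.8% and 38.9% also passed the S-phase gate, and the intervals of the differences included 0.

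Gated nuclei differed from the rest in depth and in the markers of their class. Their median was 4075, 4195 and 4923 UMIs, against 3197, 4008 and 3872 in the other nuclei, and 5, 5 and 16 of them were called doublets. Summed markers of oligodendrocyte precursors (Pdgfra, Cspg4, Olig1, Olig2, Sox10 and 3 others) stood at 12246, 10098 and 13231 CPM in gated nuclei against 7059, 6300 and 11024 in ungated nuclei. Astrocyte markers were lower, at 2042, 645 and 2042 CPM against 5119, 1034 and 2178, and so were oligodendrocyte markers such as Mog and Mbp, at 94.1, 898 and 187 CPM against 778, 3479 and 900. Microglial markers were at 258, 88.6 and 162 CPM against 155, 85.1 and 72.8. Cluster-5 immature neuron markers (Kcnj6, Nell2 and Cacng4) summed to 1108, 834 and 1272 CPM against 511, 306 and 875. Radial glia or precursor markers were lower, at 430, 648 and 779 CPM against 1676, 1641 and 1905. Lower too were glial progenitor markers, at 260, 363 and 273 CPM against 761, 813 and 924. Committed oligodendrocyte precursor markers were at 679, 898 and 522 CPM against 1636, 3327 and 1416. The 8 neuron markers summed to 1460, 547 and 1124 CPM against 737, 766 and 785. Only 2, 0 and 2 of the 8 were higher in gated nuclei, so these sums do not stand for the list. The 5 ependymal markers summed to 7.38, 136 and 80.4 CPM against 58.8, 71.2 and 92.7, with 0, 5 and 3 higher. The 5 vascular markers summed to 3.69, 8.86 and 12.2 CPM against 13.8, 12.9 and 11.1, with 0, 1 and 2 higher. Of the vascular markers Cldn5 and Rgs5 were at 0 in gated nuclei of all libraries. Without the astrocyte-like cluster the ungated control nuclei had 9216 CPM of oligodendrocyte precursor, 2469 of astrocyte, 1010 of oligodendrocyte, 199 of microglial and 646 of cluster-5 immature neuron markers. The part of these cell types in the member levels was not tested.

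Members differed in how far they were concentrated in gated nuclei. Besides the gate genes Knl1 (81.6% of its UMIs), Kif11 (80.3%), Top2a (80.02%) and Mki67 (73.4%), whose shares the gate itself raises, Iqgap3 (79.3%), Esco2 (76.9%), Cdca2 (75.8%) and Bub1 (74.5%) had most of their UMIs there. The S-phase members spread from that 76.9% for Esco2 and 61.8% for Rrm2 to 23.1% for Mcm6, 19.0% for Pcna and 5.53% for Helb. Anln, with 19.9%, was the lowest of the mitotic members. The G1 members were mostly outside, with 6.84% for Ccnd1, 4.20% for Cdk6 and 1.91% for Ccnd2. Ranked by fold of CPM in gated over ungated nuclei, the leading 40 of 5694 genes held 15 members and 16 genes of the other cell cycle lists. Leading genes on no list included the repair glycosylase gene Neil3 (48.2-fold after adding 1 CPM to each level), Depdc1a (33.3), the long non-coding RNA Lockd (30.9), the separase gene Espl1 (28.5), Ska1 (27.1), Shcbp1 (26.0), Kntc1 (25.5) and Gm550 (22.0).

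Clusters were built without the variable genes of the cell cycle lists (39 genes). Genes on no list, such as Neil3, were not taken out. A cluster of 619 nuclei was led by cell cycle genes and held 358 of the 444 gated nuclei. In this cluster S-phase members summed to 2220 CPM and mitotic members to 3109 CPM. Of the 20 S-phase members 18 had their highest level there, and so did 23 of the 24 mitotic members but none of the 3 G1 members. The cluster was named by its leading genes, which include members such as Knl1, Top2a and Kif15, so these counts follow in part from the naming. The next highest level was in the microglia-like cluster for 17 of those 18 and 22 of those 23, where the sums were 578 and 805 CPM and 16 of 321 nuclei (4.98%) passed the gate at a median of 1206 UMIs. Neuron-like nuclei, which have left the cycle, held 0 gated nuclei of 364 at a median of 3317 UMIs, which allows up to 0.824%, and astrocyte-like nuclei 0 of 1278 at 2990.5 UMIs, which allows up to 0.235%. Since most gated nuclei lay in the cell cycle-led cluster, few remained elsewhere, 29 of 3744 (0.775%) in oligodendrocyte precursor-like nuclei. Neither these shares nor the next highest levels therefore compare the classes. Oligodendrocyte precursor-like nuclei had S-phase and mitotic sums of 266 and 130 CPM by cluster. With nuclei assigned by likelihood, as described below, they had 565 and 574 CPM, and microglia-like nuclei 575 and 882 CPM.

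Anln and Helb were the exceptions to this pattern. Anln had 97.3 CPM in oligodendrocyte-like nuclei, above its 85.3 CPM in the cell cycle-led cluster, and Helb had its highest level in oligodendrocyte-like nuclei too, at 16.7 CPM. Oligodendrocyte-like nuclei numbered 162, 493 and 194, and 7 of the 849 passed the gate. The higher levels of Anln and Helb in the CBP-ablated library stand beside this number of nuclei, and its part in them was not tested.

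**Figure D3:**
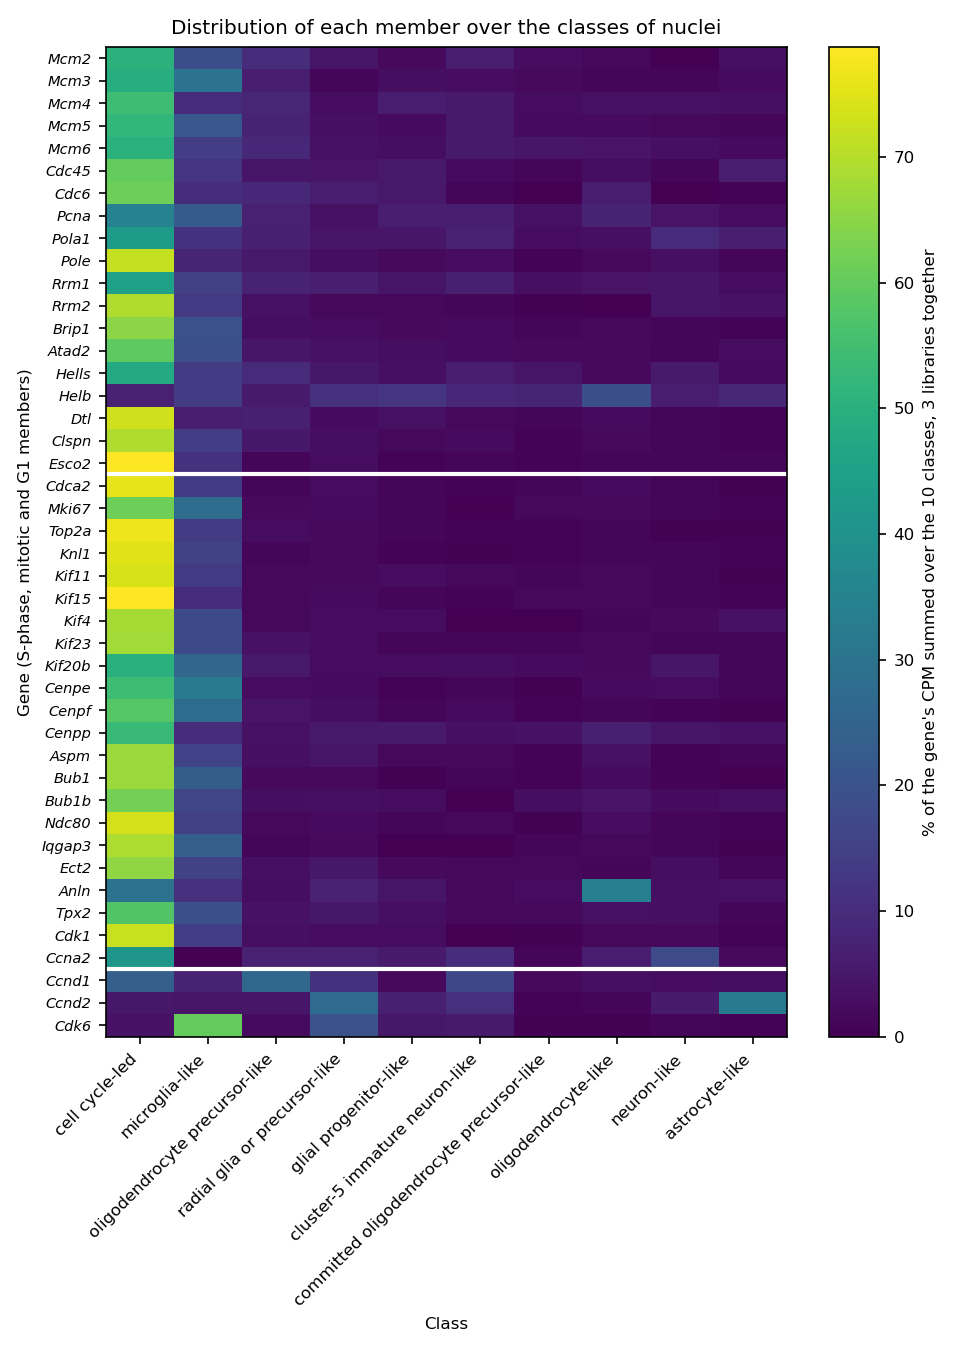
Share of each member's CPM, summed over 10 classes of nuclei, that falls in each class over the 3 libraries, for members with at least 50 UMIs; white lines part S-phase, mitotic and G1 members. The cell cycle-led cluster holds the largest part for most members, with Anln highest in oligodendrocyte-like, Ccnd2 in astrocyte-like and Cdk6 in microglia-like nuclei.

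To place dividing nuclei among the classes, each nucleus was assigned to the class whose ungated nuclei had the most similar profile, by likelihood over 9979 genes. Left out were cell cycle genes, genes under 200 UMIs in these profiles and genes at least 1.5-fold higher in gated or cell cycle-led nuclei. The genes used thus depended on the nuclei to be placed. Among ungated nuclei of the clusters named from markers, 94.5% were assigned to their own class. The profiles were made from these same nuclei, so this share does not check the placing of gated nuclei. Gated nuclei went mostly to the oligodendrocyte precursor-like classes, 67.2%, 82.8% and 69.7% of them, and then to the class with Kcnj6, Nell2 and Cacng4 (cluster-5 immature neuron-like), which took 19.9%, 1.56% and 19.5%. By this assignment 0 of 355 neuron-like nuclei, which allows up to 0.845%, and 1 of 1304 astrocyte-like nuclei (0.0767%) were gated. This assignment was chosen after the data were seen.

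The precursor-like nuclei pool clusters that the libraries held in unequal parts, and values near each cluster are given further on. Over the pooled nuclei the share of gated nuclei differed between libraries. Gated were 88 of 1337 nuclei in control (6.58%, 5.31 to 8.05), 106 of 840 after CBP ablation (12.6%, 10.4 to 15.1) and 129 of 1982 after p300 ablation (6.51%, 5.46 to 7.69). The CBP-ablated share was higher than in control by 6.04 points (3.5 to 8.74), and the p300-ablated share differed by −0.0733 points (−1.84 to 1.61). After thinning to 1500 UMIs the shares were 3.08%, 7.06% and 2.89%, and without doublets 6.68%, 12.8% and 6.46%. The S-phase gate gave 3.66%, 10.0% and 5.55%, higher than in control by 6.34 (4.16 to 8.72) and 1.89 points (0.412 to 3.29). The median depth of these nuclei was 3228, 3458 and 3834.5 UMIs.

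**Figure D4:**
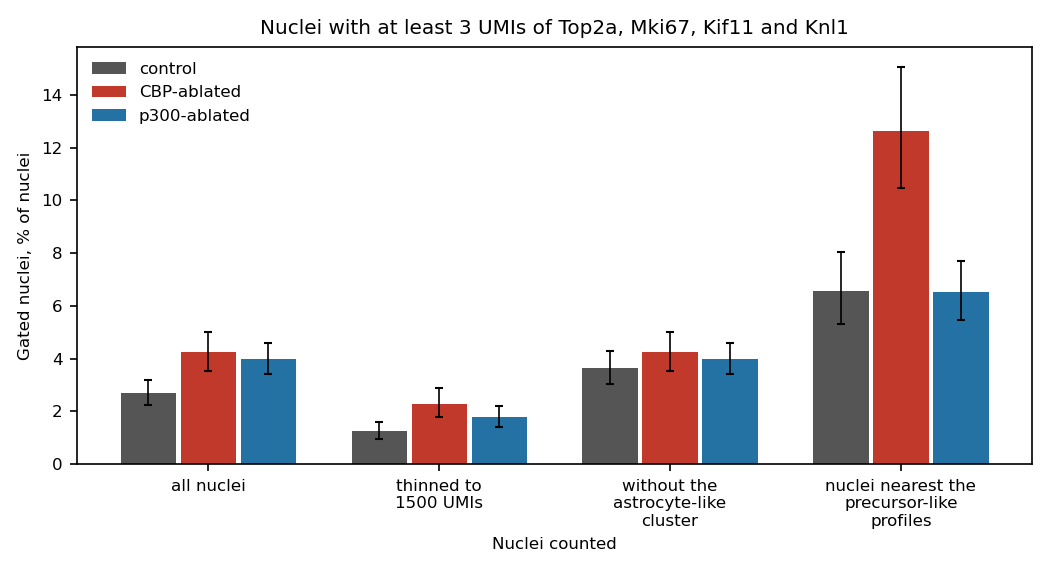
Share of nuclei with at least 3 UMIs of Top2a, Mki67, Kif11 and Knl1 together, in % of the nuclei counted, in control (grey), CBP-ablated (red) and p300-ablated (blue) libraries; bars are Clopper-Pearson intervals. Among nuclei nearest the precursor-like profiles the CBP-ablated library stands at 12.6%, and control and the p300-ablated library at 6.58% and 6.51%. These nuclei pool clusters that the libraries held in unequal parts.

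The member levels over the pooled precursor-like nuclei differed likewise, with the same limit. S-phase members summed to 487, 808 and 516 CPM, log2 ratios of 0.73 (0.65 to 0.81) and 0.08 (0.01 to 0.16). Mitotic members summed to 497, 922 and 485 CPM, with 0.89 (0.81 to 0.97) and −0.03 (−0.11 to 0.04). These intervals leave out variation between nuclei, and the gated precursor-like nuclei numbered only 88, 106 and 129. In the CBP-ablated library 13 of 16 S-phase and 18 of 20 mitotic members with at least 50 UMIs were past 1.5-fold higher, beside 9.26% of 9296 genes, and all 36 were above 0, beside 67.0% of all genes. Ratios of the 13 ran from 0.60 (0.23 to 0.97) for Mcm6 to 1.103 (0.27 to 1.96) for Mcm5, and of the 18 from 0.59 (0.18 to 1.00) for Kif20b to 1.71 for Bub1b. The medians of the 16 and the 20 were 0.84 and 0.89, beside 0.15 for all genes. Past 1.5-fold lower were Ccnd2 (−1.42, −2.19 to −0.72) and Cdk6 (−0.66, −1.20 to −0.14) alone, beside 5.92%. In the p300-ablated library 3 of 43 members were past 1.5-fold higher, beside 3.18% of 10425 genes, namely Bub1b, Mcm5 (0.65, −0.071 to 1.43) and Rrm1 (0.61, 0.20 to 1.03). Lower were 3, beside 5.05%, namely Rrm2, Cenpf (−0.59, −0.98 to −0.19) and Cdk6 (−0.89, −1.30 to −0.48).

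Single members had the following levels in these nuclei. Bub1b had 4.32, 14.1 and 7.35 CPM (19, 42 and 57 UMIs), log2 ratios of 1.71 (0.89 to 2.57) and 0.77 (−0.0042 to 1.60). Top2a had 67.3, 143 and 71.0 CPM (296, 427 and 550 UMIs), with 1.09 (0.87 to 1.31) and 0.08 (−0.13 to 0.28). Rrm2 had 7.73, 15.5 and 3.87 CPM (34, 46 and 30 UMIs), with 1.00 (0.33 to 1.68) and −0.999 (−1.76 to −0.25). These members were highest in the CBP-ablated library, and Rrm2 was lowest in the p300-ablated library.

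The precursor-like nuclei came from different clusters in the 3 libraries. In control 880 nuclei were nearest the cluster with Tmem255b and Cspg4 among its leading genes (cluster 0) and 457 nearest that with Gpr149 among them (cluster 3), against 125 and 715 after CBP ablation and 1714 and 268 after p300 ablation. Near cluster 3 the share of gated nuclei was 6.13%, 13.0% and 10.1%, higher than in control by 6.88 (3.44 to 10.1) and 3.95 points (−0.0569 to 8.53). Near cluster 0 it was 6.82%, 10.4% and 5.95%, with differences of 3.58 (−1.03 to 10.3) and −0.867 points (−2.99 to 1.06). The S-phase gate near cluster 3 gave 2.84%, 10.8% and 4.85%, and near cluster 0 it gave 4.09%, 5.60% and 5.66%. The mitotic sum near cluster 3 had log2 ratios of 0.63 (0.51 to 0.74) and 0.59 (0.45 to 0.73), and near cluster 0 of 0.47 (0.28 to 0.66) and −0.03 (−0.12 to 0.07). For the S-phase sum they were 0.79 (0.67 to 0.92) and 0.32 (0.15 to 0.49) near cluster 3. Near cluster 0 they were 0.31 (0.12 to 0.50) and 0.05 (−0.03 to 0.14). Near cluster 3, 20 of 33 members were past 1.5-fold higher in the CBP-ablated library, beside 7.16% of all genes, and 11 of 26 after p300 ablation, beside 6.46%. Lower there were Ccnd2 and Cdk6 after CBP ablation, beside 5.81%, and Cdk6 after p300 ablation, beside 6.01%. The G1 sum near cluster 3 had log2 ratios of −0.67 (−0.92 to −0.43) and −0.05 (−0.34 to 0.24), and near cluster 0 of −0.10 (−0.46 to 0.24) and −0.03 (−0.17 to 0.12).

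Within gated nuclei the S-phase and mitotic sums of each ablated library differed little from control. The gate is a raw count of mitotic UMIs, so it partly sets these levels, and deeper nuclei pass it at a lower CPM. Gated nuclei had a median of 4075, 4195 and 4923 UMIs. Against the CBP-ablated library, the p300-ablated log2 ratio was −0.15 (−0.25 to −0.05) for S-phase members. For mitotic members without the gate genes it was −0.12 (−0.21 to −0.02). S-phase members summed to 2381, 2542 and 2289 CPM, log2 ratios of 0.09 (−0.02 to 0.20) and −0.06 (−0.16 to 0.04), and mitotic members without the 4 gate genes to 2629, 2808 and 2591 CPM, with 0.10 (−0.01 to 0.20) and −0.02 (−0.11 to 0.07). The ratio of S-phase to mitotic UMIs in gated nuclei was 0.906, 0.905 and 0.884 without the 4 gate genes. With the gate genes, which the gate itself raises, it was 0.554, 0.553 and 0.542. Of 35 members with at least 20 UMIs, 4 were past 1.5-fold higher in the CBP-ablated library, beside 18.7% of all genes at that count, and 3 were lower, beside 10.1%. The higher ones were Bub1b (1.08, 0.27 to 1.95), Hells (0.69, 0.18 to 1.21), Cdc45 (0.66, −0.36 to 1.73) and Mcm4 (0.63, −0.27 to 1.56), and the lower ones Cdk6 (−1.01, −2.05 to −0.025), Ccnd1 (−0.86, −1.44 to −0.29) and Mcm3 (−0.69, −1.93 to 0.49). Of 38 in the p300-ablated library 3 were higher, beside 11.4%, namely Mcm2 (0.95, −0.41 to 2.55), Cdc45 (0.83, −0.065 to 1.81) and Bub1b (0.82, 0.062 to 1.65), and Rrm2 was lower (−0.95, −1.72 to −0.19), beside 9.24%. The medians over all members were 0.06 and −0.09, beside 0.13 and 0.02 for all genes. In ungated nuclei S-phase members summed to 198, 204 and 234 CPM and mitotic members to 115, 144 and 124 CPM.

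The G1 members had patterns of their own. Ccnd1 (cyclin D1, ENSMUSG00000070348, chr7:144929931-144939925 in GRCm38) had 61.4, 41.9 and 94.5 CPM (1002, 534 and 1784 UMIs), a log2 ratio of −0.55 (−0.71 to −0.40) after CBP ablation and 0.62 (0.51 to 0.73) after p300 ablation. Ccnd2 (cyclin D2, ENSMUSG00000000184, chr6:127125162-127152193) had 49.4, 16.2 and 29.6 CPM (806, 206 and 559 UMIs), with −1.61 (−1.84 to −1.39) and −0.74 (−0.90 to −0.58). Cdk6 (ENSMUSG00000040274, chr5:3341485-3531008), the kinase they activate, had 40.2, 31.5 and 41.2 CPM (655, 401 and 777 UMIs), with −0.35 (−0.54 to −0.17) and 0.04. All 3 were thus lowest in the CBP-ablated library, and Ccnd1 was highest in the p300-ablated library. Without the astrocyte-like cluster the ratio after p300 ablation was 0.31 (0.20 to 0.43) for Ccnd1 and −0.32 (−0.47 to −0.16) for Cdk6. In gated nuclei the G1 sum was 203, 112 and 164 CPM, with log2 ratios of −0.86 (−1.33 to −0.40) and −0.31 (−0.67 to 0.05).

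Each G1 member had its highest CPM in a different class. Values by class, here and below, are by cluster and not by likelihood, so they differ from those of precursor-like nuclei above. Ccnd1 was highest in oligodendrocyte precursor-like nuclei, at 145, 118 and 155 CPM, log2 ratios of −0.31 (−0.52 to −0.10) and 0.10 (−0.05 to 0.25). These nuclei came from clusters 0 and 3 in unequal parts, which bears on all 3 G1 members. With nuclei assigned by likelihood, the G1 sum after CBP ablation was −0.67 near cluster 3 and −0.10 near cluster 0 as a log2 ratio. In the cell cycle-led cluster Ccnd1 had 138, 78.0 and 148 CPM, with −0.82 (−1.35 to −0.31) and 0.10.

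For Ccnd2 the astrocyte-like nuclei, found in control alone, had 103 CPM and held 402 of its 806 control UMIs. Radial glia or precursor-like nuclei had 96.7, 78.7 and 84.2 CPM of Ccnd2, log2 ratios of −0.30 (−0.62 to 0.03) and −0.20 (−0.47 to 0.07). Oligodendrocyte precursor-like nuclei had 21.2, 6.75 and 14.9 CPM, with −1.65 (−2.52 to −0.86) and −0.50 (−0.94 to −0.06). Without the astrocyte-like cluster the ratio of the p300-ablated library was −0.14 (−0.33 to 0.05), with an interval that includes 0, while that of the CBP-ablated library was −1.01.

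Cdk6 was highest in microglia-like nuclei, at 365, 591 and 300 CPM, with a log2 ratio of 0.70 (0.24 to 1.15) in the CBP-ablated library. Radial glia or precursor-like nuclei had 137, 119 and 136 CPM of Cdk6. They held 987 of its 1833 UMIs over the 3 libraries, against 222 in microglia-like nuclei. In oligodendrocyte precursor-like nuclei it was lower in both ablated libraries, at 24.1, 13.9 and 12.0 CPM, with −0.79 (−1.41 to −0.20) and −1.01 (−1.46 to −0.56). In cluster-5 immature neuron-like nuclei, of which the CBP-ablated library had 23, control had 57.0 and the p300-ablated library 24.8 CPM, a log2 ratio of −1.20 (−1.79 to −0.62).

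**Figure D5:**
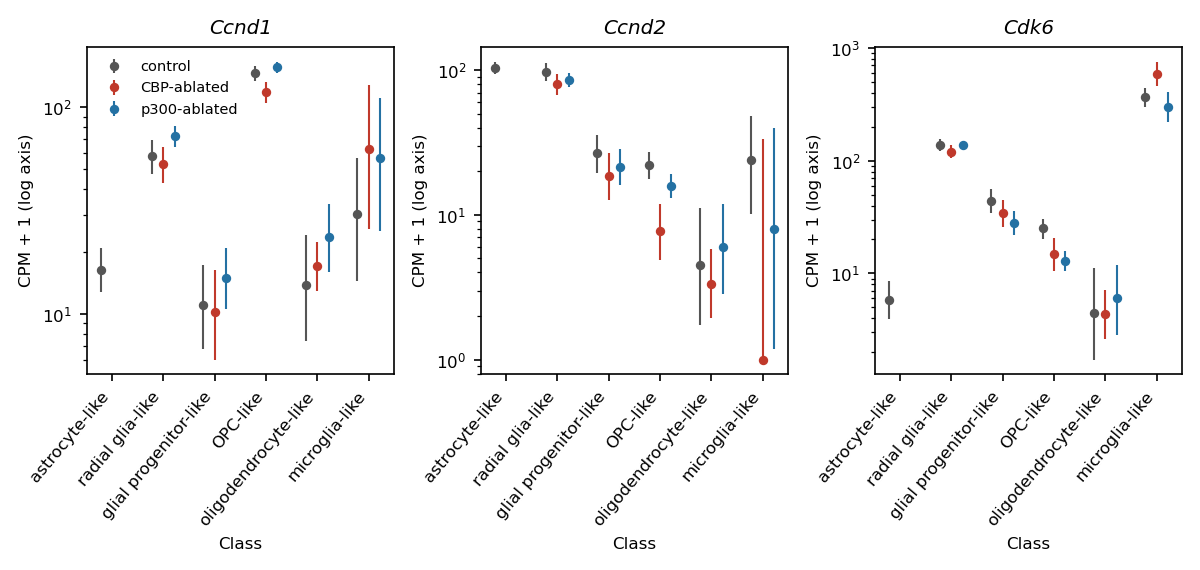
Level of Ccnd1, Ccnd2 and Cdk6 in 6 classes of nuclei, as CPM + 1 on a log axis, in control (grey), CBP-ablated (red) and p300-ablated (blue) libraries; bars are exact Poisson intervals. Ccnd2 in OPC-like (oligodendrocyte precursor-like) nuclei lies at 21.2, 6.75 and 14.9 CPM, and astrocyte-like nuclei are shown for control alone.

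Other genes of the pathway were taken from wider lists, and their values are over all nuclei, the astrocyte-like cluster of control included. Of 40 other S-phase genes 39 reached 50 UMIs in the CBP-ablated comparison, where 4 were past 1.5-fold higher, beside 9.02% of all genes, and 0 lower, beside 11.0%. In the p300-ablated comparison 3 of 40 were higher, beside 5.26%, and 0 lower, beside 9.40%, so that the counts of higher S-phase genes were near the background. Among the higher ones were Fen1, the flap endonuclease (3.8, 9.73 and 2.70 CPM; log2 ratio 1.36, 0.90 to 1.82), Chaf1a (0.67) and Exo1 (0.61) in the CBP-ablated library, and Chaf1b (0.82), Fancd2 (0.69) and Uhrf1 (0.59) in the p300-ablated library. Of 53 other mitotic genes, 47 and 49 reached the minimum, with 9 and 6 higher, beside the same 9.02% and 5.26%, and 1 lower in each. Their extremes were Pbk (0.99) and Ckap2 (−0.86) in the CBP-ablated library and Dlgap5 (1.04), Kif18b (0.87) and Gtse1 (−0.69) in the p300-ablated library. Median log2 ratios were 0.31 and 0.16 for the S-phase list and 0.27 and 0.25 for the mitotic list, beside 0.05 and −0.04 for all genes.

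Of 13 cell cycle inhibitors 11 reached the minimum and 0 were past 1.5-fold higher. Past 1.5-fold lower were 4 after CBP ablation, beside 11.0% of all genes, and 1 after p300 ablation, beside 9.40%, which is near the background. The medians were −0.16 in both, and 3 and 4 of the 11 were above 0. Cdkn1a, which encodes the p53 target p21, had 28.2, 13.1 and 17.7 CPM (460, 167 and 334 UMIs), log2 ratios of −1.11 (−1.37 to −0.85) and −0.67 (−0.88 to −0.47). Gas1, a growth arrest gene, had 186, 62 and 151 UMIs, with −1.23 (−1.67 to −0.81) in the CBP-ablated library. Cdkn2b, which encodes the Cdk4 and Cdk6 inhibitor p15, had 83, 31 and 77 UMIs, with −1.07 (−1.71 to −0.45), and Btg2 had 228, 97 and 236 UMIs, with −0.88 (−1.24 to −0.53). In CPM, control was highest for all 4. These values are over all nuclei, and the part of the astrocyte-like cluster, found in control alone, was not tested.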

How the data were processed

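Nuclei of 3 pooled cultures, 1 library per condition, were sequenced with 10x Genomics chemistry by the authors. Per the labels and the submitters' processing notes, reads were checked with FastQC 0.11.9, aligned to GRCm38 (annotation version 94) and counted by Cell Ranger 3.1 over introns as well as exons, and Seurat 2.3.4 was used downstream. The authors deposited raw UMI counts per gene and nucleus, checked here to be whole numbers. No normalization precedes them. The libraries held 16312170, 12748336 and 18876682 UMIs (control, CBP-ablated, p300-ablated), all nuclei had at least 500 UMIs and all were kept, and 3, 7 and 1 barcodes were shared between pairs of libraries.

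The members, gene lists and gates were chosen with earlier results of these data known. UMIs were summed per library and divided by the library total (CPM). Intervals are exact Poisson (levels), conditional binomial (ratios), Clopper-Pearson (shares) and Newcombe (differences of shares), and reads of a molecule share a UMI, so they cover counting error only. Clusters (13) were made with Seurat (version 5.3.0; R 4.3.3; Matrix 1.6.5) after the study's settings, on 1750 variable genes without those of the cell cycle lists. They were named from marker lists where 60% of the markers and at least 3 were in 10% of nuclei and 2-fold higher than elsewhere. These limits were set with the clusters known, and names may differ from the published ones. Doublets (191, 73 and 173) were called with Scrublet in scanpy 1.11.5 at 0.8% per 1000 nuclei, and kept unless stated. Sums were made in Python 3.11.15 with pandas 2.3.3, scipy 1.17.1 and numpy 2.4.6, and plots with matplotlib 3.10.9. The intervals and fold calls were run on simulated counts that held 2-fold changes and counting error alone. Variation between nuclei and 1.5-fold changes were not simulated.

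Every member with at least 50 UMIs over the libraries was given with its values, log2 ratios were given for members past 1.5-fold among those with 50 UMIs in the libraries compared (20 in gated nuclei; in precursor-like nuclei as a range where many passed, and near single clusters by count), and other genes were named by their fold in gated nuclei or as the extremes of 3 further lists. Some genes that this rule covers are not reported here. Values in precursor-like nuclei, assigned by likelihood, and without gated nuclei were added after the data were seen.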

Additional observations from a re-analysis of the deposited data

How the results depend on the processing

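No paired analysis was possible because each condition had 1 library, and for the same reason no replicate could be left out. Ratios and differences are over control, in the order CBP-ablated, p300-ablated. Without the astrocyte-like cluster the log2 ratio of the S-phase sum went from 0.18 and 0.33 to 0.0014 and 0.15, that of the mitotic sum from 0.43 and 0.41 to 0.14 and 0.13 and that of the G1 sum in the p300-ablated library from 0.13 to 0.048. The same setting took the members past 1.5-fold higher from 6 and 11 to 3 and 3, those lower in the CBP-ablated library from 1 to 4, and the difference in gated nuclei from 1.56 and 1.30 points to 0.610 and 0.347. In precursor-like nuclei the S-phase ratios were 0.73 and 0.085, the mitotic ratios 0.89 and −0.035, the G1 ratios −0.54 and −0.045 and the differences in gated nuclei 6.04 and −0.0733 points. For the p300-ablated library the mitotic and G1 ratios and the difference in gated nuclei thus fell below 0, with intervals that include 0. These nuclei pool clusters that the libraries held in unequal parts. Near cluster 3 the mitotic ratios were 0.63 and 0.59, and near cluster 0 they were 0.47 and −0.03. The S-phase ratios were 0.79 and 0.32 near cluster 3 and 0.31 and 0.05 near cluster 0. With cluster-5 immature neuron-like nuclei added the differences were 5.62 and −0.257 points. Without gated nuclei the S-phase ratios were 0.043 and 0.24 and the mitotic ratios 0.32 and 0.12. When each nucleus weighed the same, the S-phase ratios were 0.26 and 0.24, the mitotic ratios 0.51 and 0.29 and the G1 ratio of the CBP-ablated library −0.63. Without Pola1 the S-phase ratios were 0.34 and 0.39, and without Ccnd1 the G1 ratios were −0.91 and −0.34, which turned the direction of the p300-ablated library. As medians over members, the S-phase ratio of the CBP-ablated library was 0.29 and the G1 ratios were −0.55 and 0.036. At 2-fold, 0 members were higher in either library and 0 lower in the p300-ablated library. Thinning to 1500 UMIs gave a difference in gated nuclei of 0.544 points in the p300-ablated library and differences in the S-phase gate of 0.568 and 0.226 points. A gate on the other mitotic members gave 2.61 points in the CBP-ablated library. With a gate of 5 UMIs the log2 ratio of S-phase to mitotic UMIs in gated nuclei of the CBP-ablated library went from −0.0023 to 0.13. The gate genes are included in this ratio. Clusters with all variable genes put 85.9% of the gated CBP-ablated nuclei in the cell cycle-led cluster, from 78.1%. For each of these changes the cause was not tested beyond the nuclei or genes that the setting leaves out. In the other 76 comparisons of a value with an alternative, the value stayed within its interval, or within 1.5 times for a count, and some values near 0 changed sign within it. Depth limits members under 50 UMIs, where a 1.5-fold difference was not detectable. It also limits some members above that count. After CBP ablation the intervals of Mcm2 (−1.11 to 0.27) and Mcm3 (−0.75 to 0.51) held both 0 and a 1.5-fold difference.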
